A study of Mus musculus with 8 samples.

Results

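H3ac, acetylated histone H3, was examined at 3 CXC chemokine genes, Cxcl1, Cxcl2 and Cxcl10, in RAW 264.7, a macrophage-like cell line from the mouse. Their peaks were taken by position on chromosome 5 (GRCm39). One window, from 91030000 to 91065000, was given for Cxcl1 and Cxcl2, and another, from 92480000 to 92510000, for Cxcl10. Merging the 4 library peak lists wherever peaks shared at least 1 bp gave 81544 regions, and 7 of these touched the windows: 4 in the Cxcl1-Cxcl2 window and 3 in the Cxcl10 window. Outside these 7 regions no library had a peak in either window. In the Cxcl1-Cxcl2 window, for example, none had a peak between 91030523 and 91045669. The cells had been exposed for 48 h to either Gel or CuNZ@Gel, with 2 immunoprecipitated libraries for each treatment and input libraries that were not analysed here. The series title names a sprayable nanozyme hydrogel, meant for wounds in diabetes, and the design sets CuNZ@Gel against Gel. The shared treatment text of the labels mentions CuNZ@Gel extracts alone, so the Gel group rests on its treatment label. All libraries come from 1 cell line, and nothing says that the libraries of a group were separate cultures, so p-values measure the spread between these libraries, which may be technical. The p-values fitted region by region (limma) also draw on the spread at other regions, so they do not rest on a region's own libraries alone. The labelled macrophage identity was not checked against marker genes, because the lists name no genes.

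Chemokines are small secreted proteins that draw leukocytes along a gradient. Cxcl1 and Cxcl2 are neutrophil attractants that signal through the receptor Cxcr2, and activated macrophages make them when NF-kappaB enters the nucleus. Cxcl10 is induced by interferons and attracts activated T cells through Cxcr3. Acetylation of histone H3 marks active promoters and enhancers, so peaks near such genes show where chromatin carried the mark, and are no measure of how much RNA was made. In the RefSeq gene order of the earlier build GRCm38.p6, Cxcl1 (gene ID 14825) lies between Cxcl15 and Cxcl2 (20310), and Cxcl2 is followed by Mthfd2l. Cxcl10 (15945) lies between Cxcl9 and Cxcl11 and overlaps Art3. A peak in a window was therefore not assigned to a single gene, and whether it lies in a promoter, exon or intron was not analysed here.

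The bases before the start of each gene are shown because NF-kappaB and interferon signalling are known to act through short motifs there, and the genes differ in which of these letters they hold. They are RefSeq sequences of GRCm38.p6, each of 250 bases, 5′ to 3′ on the gene's strand, which is the plus strand for Cxcl1 and Cxcl2 and the minus strand for Cxcl10. They were not placed on GRCm39. Capitals mark matches on either strand to GGNNNTTCC, a loose kappaB-like motif, and to GAAANNGAA, part of the interferon-stimulated response element.
Cxcl1: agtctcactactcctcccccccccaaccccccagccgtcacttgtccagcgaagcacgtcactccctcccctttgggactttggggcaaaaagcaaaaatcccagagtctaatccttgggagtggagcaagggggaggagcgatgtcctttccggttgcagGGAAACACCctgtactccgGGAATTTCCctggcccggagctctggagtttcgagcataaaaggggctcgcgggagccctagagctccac
Cxcl2: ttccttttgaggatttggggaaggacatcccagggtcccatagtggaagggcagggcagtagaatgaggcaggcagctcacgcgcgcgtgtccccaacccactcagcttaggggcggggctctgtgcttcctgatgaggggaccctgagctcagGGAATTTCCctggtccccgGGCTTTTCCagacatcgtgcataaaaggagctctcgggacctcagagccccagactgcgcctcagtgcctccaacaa
Cxcl10: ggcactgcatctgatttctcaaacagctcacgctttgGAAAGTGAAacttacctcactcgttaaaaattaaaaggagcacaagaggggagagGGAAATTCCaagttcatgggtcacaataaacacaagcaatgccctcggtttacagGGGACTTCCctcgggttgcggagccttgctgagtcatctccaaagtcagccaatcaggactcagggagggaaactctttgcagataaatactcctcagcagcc

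Cxcl1 and Cxcl2 carried the same kappaB-like letters, GGAATTTCC, which matched on both strands at the same bases, and no match to the interferon motif. They lay 70 to 62 bases before the start in Cxcl1 and 96 to 88 bases before it in Cxcl2. Each gene had a further kappaB-like match, GGAAACACC at 89 to 81 bases before the start of Cxcl1, on the opposite strand, and GGCTTTTCC at 77 to 69 before that of Cxcl2. Cxcl10 also held 2 kappaB-like matches, GGAAATTCC at 158 to 150 and GGGACTTCC at 103 to 95 bases before the start, and the interferon motif, GAAAGTGAA, at 213 to 205. Matches to such loose letters are common: among 32817 RefSeq promoters cut to the same length, 15.7% held the kappaB-like motif, 7.12% the interferon motif and 0.996% both. The letters were chosen with these sequences in view, after longer forms had been tried, and a match is a description and no evidence of binding.

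The 4 lists differ in depth, which touches each value below. The usual background, in fragments per base, was 4.62 and 4.28 in Gel replicates 1 and 2 but 3.45 and 2.46 in CuNZ@Gel replicates 1 and 2. Fold means the authors' enrichment at the peak summit (column 7 of the lists). Summit height means the fragments stacked at the summit, recovered from fold and p, divided by the library background. Covered width means the bases of a region that lie under peaks.

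In the Cxcl1-Cxcl2 window, the bases under H3ac peaks overlapped between the treatments. With replicate 1 given first, peaks covered 1994 and 1588 bp of the window in the Gel libraries, against 1750 and 1652 bp for CuNZ@Gel. The CuNZ@Gel values lay inside the Gel range, and the group means were 1791 ± 287 bp (SD, n = 2) for Gel and 1701 ± 69.3 bp (SD, n = 2) for CuNZ@Gel, a difference of -90 bp (exact two-sided permutation p = 1). The difference was 113 bp without Gel replicate 1, -293 bp without Gel replicate 2, and -298.5 bp with the window 5 kb wider on each side. Region 1 crosses the window's start and is counted here only as far as it lies inside; the region as a whole differed by -241 bp. In the Cxcl10 window fewer bases lay under peaks after CuNZ@Gel. Peaks covered 1983 and 2710 bp there in the Gel libraries and 1393 and 1113 bp in the CuNZ@Gel libraries, with no overlap between groups. The means were 2346.5 ± 514 bp for Gel and 1253 ± 198 bp for CuNZ@Gel (SD, n = 2), so the CuNZ@Gel mean was 53.4% of the Gel mean (exact two-sided permutation p = 0.33, the smallest that 2 against 2 libraries can give). Over the whole lists, peaks covered 42.3 and 43.2 Mb in the Gel libraries and 26.2 and 22.2 Mb in the CuNZ@Gel libraries, also without overlap. Lower coverage after CuNZ@Gel is therefore not particular to the Cxcl10 window. Whether the windows differ in their response was not tested. Peak number told less: the Cxcl1-Cxcl2 window had 4 and 4 peaks in Gel and 3 and 4 in CuNZ@Gel, and the Cxcl10 window had 2 and 3 against 3 and 2.

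**Figure D1:**
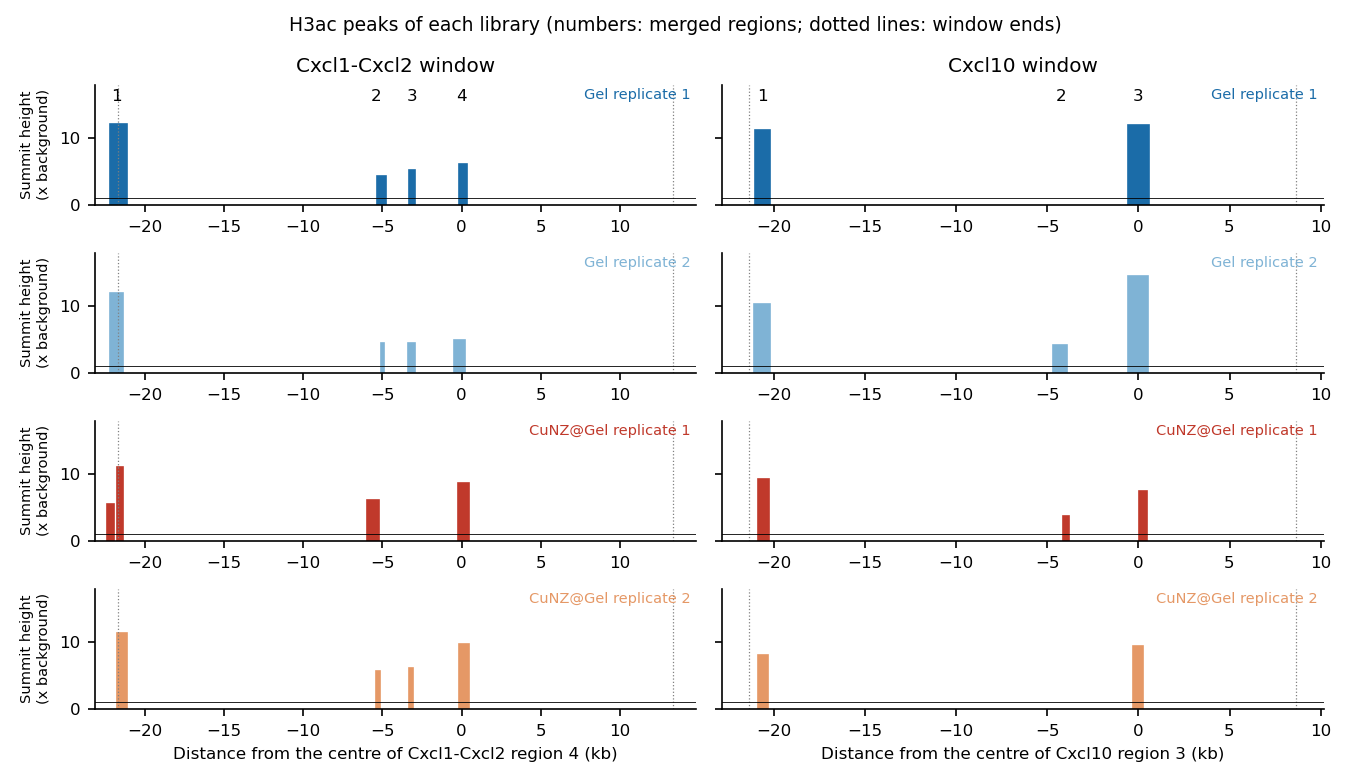
H3ac peaks of the 4 libraries in the Cxcl1-Cxcl2 window (left) and the Cxcl10 window (right); the x axis is the distance in kb from the centre of Cxcl1-Cxcl2 region 4 or of Cxcl10 region 3, and each bar spans a peak, with its summit height in multiples of the library background on the y axis. Region 4 stands higher in the CuNZ@Gel libraries (8.70 and 9.77) than in the Gel libraries (6.07 and 4.90), whereas Cxcl10 region 3 is lower and narrower in them.

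No member region was lost from both CuNZ@Gel libraries. Both Gel libraries had peaks in 6 of the 7. Among these 6, 5 had peaks in both CuNZ@Gel libraries, 1 had a peak in a single one and 0 had none; over all 39317 such regions of the lists these shares were 55.7%, 19.4% and 24.9%. With 6 regions, these counts are given beside those shares and nothing is read from them. Covered width was tested region by region with limma over 43964 regions with peaks in at least 2 libraries. It called 0 regions lower and 0 higher at an adjusted p of 0.05 (a background of 0%), though 19298 had an unadjusted p under 0.05, among them 2 of the 7 chemokine regions. Of the 5 chemokine regions with peaks in all 4 libraries, 3 had every CuNZ@Gel width below every Gel width, and 0 had the reverse. The background for narrower regions was 74.5%, and for wider regions 1.26%.

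Cxcl1-Cxcl2 region 4, from 91051193 to 91052136, had a higher H3ac summit after CuNZ@Gel. The authors' fold was 5.16 and 4.16 in the lists of Gel replicates 1 and 2, and 6.97 and 7.23 in those of CuNZ@Gel replicates 1 and 2. In summit height these were 6.07 and 4.90 against 8.70 and 9.77 times background, both CuNZ@Gel libraries lying above both Gel libraries. The means were 5.48 ± 0.824 and 9.24 ± 0.752 (SD, n = 2). A limma fit of log2 summit height over the 21909 regions with peaks in all 4 libraries, chosen after the heights had been seen, gave a rise of 0.76 ± 0.22 (log2, SE) with an adjusted p of 0.00608. That fit called 0.913% of regions higher and 28.1% lower, and the median difference over all regions was -0.27. The rise is relative to depth: the summit fragments themselves, 28 and 21 in Gel and 30 and 24 in CuNZ@Gel, overlapped between groups. Without scaling, limma gave 0.15 with an adjusted p of 0.659, the highest over all alternatives run, where the lowest was 0.00434. Without Gel replicate 2 the difference was 0.60, with an adjusted p of 0.164 by limma.

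The width of region 4 overlapped between the treatments, unlike its height. Its peaks covered 513 and 700 bp in Gel and 714 and 642 bp in CuNZ@Gel, which overlap, and the limma difference was 71.5 ± 106 bp (SE, adjusted p = 0.637). The summits lay at 91051775 and 91051761 in the Gel libraries and at 91051902 and 91051834 in the CuNZ@Gel libraries, a spread of 141 bp where the median over regions in all 4 libraries was 181 bp. Of 5890 regions elsewhere with peaks in both Gel libraries and a mean Gel fold within 10% of that of region 4, 46.6% had peaks in both CuNZ@Gel libraries. Among those 2742 regions, the fold was lower than that of region 4 in 98.1% for CuNZ@Gel replicate 1 and in 99.1% for replicate 2. Their median height ratio of CuNZ@Gel over Gel was 0.949, against 1.68 for region 4, and 10 of them had a higher ratio. In width, the CuNZ@Gel mean of region 4 was 111.8% of its Gel mean. The median of these regions was 59.9%, and 102 of them had a larger share. Since a weak region must reach the peak threshold in CuNZ@Gel to be counted, those ratios lean upward.

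Further along the window, the weaker regions 2 and 3 gave mixed values. Region 2, from 91045669 to 91046885, had folds of 3.74 and 3.78 in Gel and of 4.95 and 4.28 in CuNZ@Gel, and widths of 560 and 187 bp against 778 and 229 bp. Its summit heights, 4.33 and 4.43 against 6.09 and 5.70, did not overlap, but its log2 height difference of 0.43 ± 0.23 (SE) had an adjusted limma p of 0.153. Among the 1751 regions of like Gel fold with peaks in all libraries, the median height ratio of CuNZ@Gel over Gel was already 1.07, and 140 had a higher ratio than the 1.34 of region 2. The summits were scattered over 825 bp, so the 4 peaks need not be 1 feature. In the deposited group lists, the Gel interval of region 2 ran from 91046564 to 91046750 and the CuNZ@Gel interval from 91046258 to 91046446, with no shared base. Only 20.4% of 8586 regions with a like Gel fold had peaks in both CuNZ@Gel libraries.

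Region 3, from 91048311 to 91048748, had a peak in 3 libraries. It covered 397 and 385 bp in Gel with folds of 4.45 and 3.64, no base in CuNZ@Gel replicate 1, and 264 bp with a fold of 4.57 in CuNZ@Gel replicate 2. At the mean height of the libraries with a peak, 5.25 times background, CuNZ@Gel replicate 1 would have had 18.1 summit fragments, and the fewest under any of its called peaks were 11. That mean leaves out the library without a peak and so leans upward. Why the peak is absent was not tested. The deposited CuNZ@Gel group list had no interval there. Losing the peak in a single CuNZ@Gel library was common at this strength: it applied to 35.6% of 7756 regions with a like Gel fold, and a further 36.2% had no CuNZ@Gel peak.

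Region 1, from 91029257 to 91030523, crosses the start of the window. Its folds were 9.59 and 9.84 in Gel and 7.39 and 8.39 in CuNZ@Gel, and the summits of the 4 libraries fell within 37 bp. Covered width was 1068 and 852 bp in Gel and 836 and 602 bp in CuNZ@Gel, without overlap, and the limma difference was -241 ± 140 bp (SE, adjusted p = 0.259). In CuNZ@Gel replicate 1 the region was split into 2 peaks, one of which lay outside the window. Its mean CuNZ@Gel width, 74.9% of the Gel mean, stood near the median of 74.2% over regions of like Gel fold, and 98.8% of 1958 such regions had peaks in both CuNZ@Gel libraries. The height ratio of CuNZ@Gel over Gel, 0.933, was above the median of 0.802 over such regions. Of those with peaks in all libraries, 18.1% had a higher ratio. The log2 height difference of region 1 was -0.10 ± 0.18 (SE), with an adjusted limma p of 0.706.

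**Figure D2:**
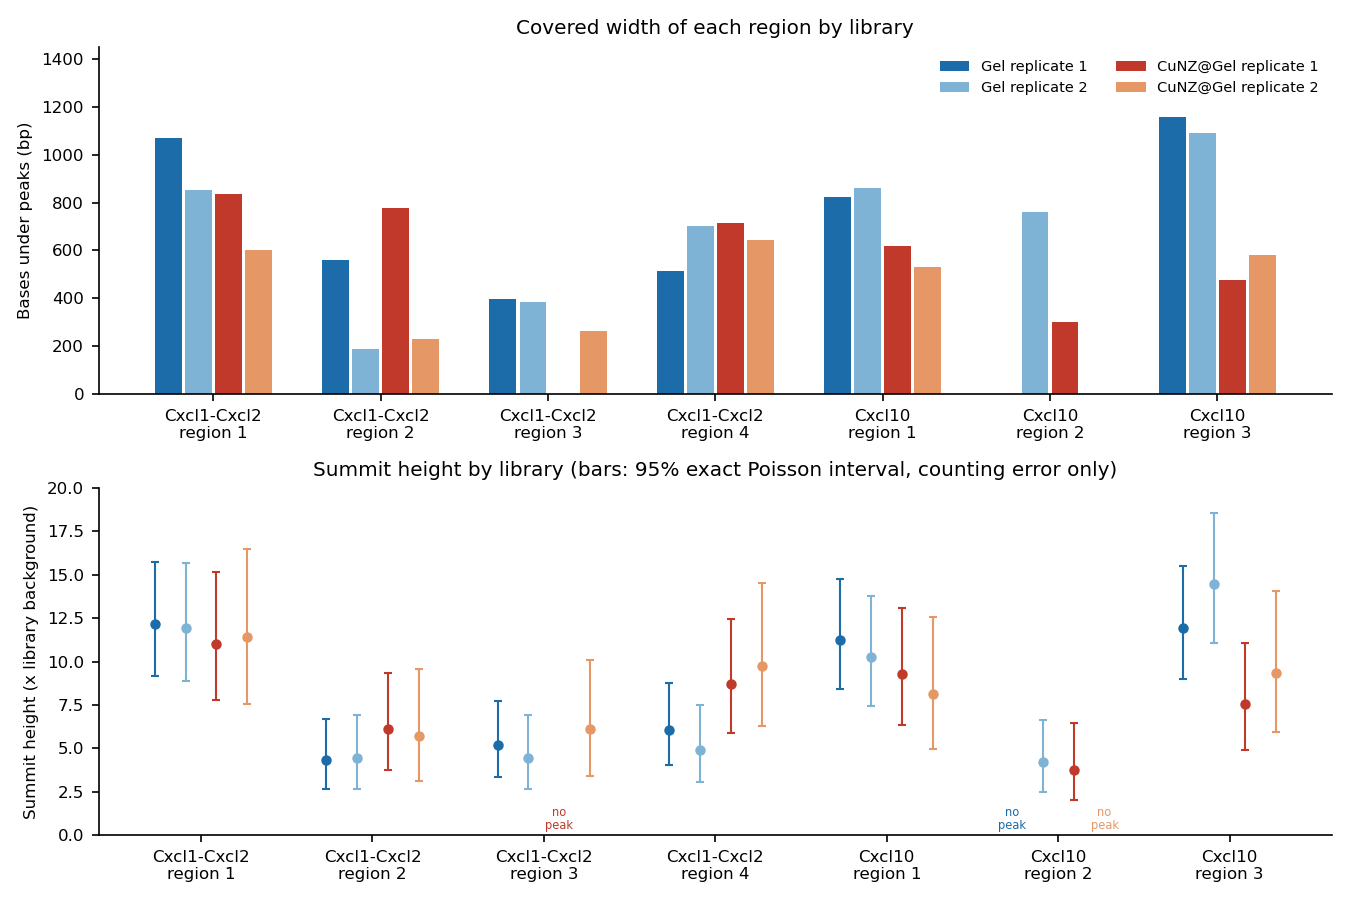
Bases under peaks in bp (top) and summit height in multiples of the library background (bottom) for the 7 chemokine regions in each library; bars in the lower panel are 95% exact Poisson intervals of the fragment count, which cover counting error only. In Cxcl10 region 3 both CuNZ@Gel libraries (475 and 582 bp) lie below both Gel libraries (1158 and 1089 bp).

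Cxcl10 region 3, from 92500769 to 92501926, had a lower summit after CuNZ@Gel and covered fewer bases, though the width missed the threshold. Its peaks covered 1158 and 1089 bp in Gel but 475 and 582 bp in CuNZ@Gel, so the CuNZ@Gel mean was 47.0% of the Gel mean. The difference of -595 ± 88.7 bp (SE) had an adjusted limma p of 0.0502. That was the smallest adjusted p in the fit over all 43964 regions, a value that the Benjamini-Hochberg adjustment gave to many regions at once. Of all regions, 15.04% had a lower difference, so this p does not set the region apart. Over the alternatives it ran from 0.0252 to 0.217, and where it passed, 7.87%, 19.7% or 28.0% of all regions were called lower with it. Summit heights were 11.9 and 14.5 against 7.54 and 9.36, with no overlap between the groups. On the log2 scale summit height fell by 0.64 ± 0.19 (SE), with an adjusted limma p of 0.00646, in a fit that called 28.1% of regions lower. The fragments at the summit, 55 and 62 against 26 and 23, did not overlap either.

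The call on height depended on the scaling and on 1 library. Without scaling, the log2 difference in summit fragments was -1.26 with an adjusted limma p of 0.000681, in a fit that called 77.5% of regions lower. With each library centred on its own median over all regions, the log2 difference was -0.38 and the adjusted limma p 0.221. Under that centring, 801 regions were called lower and 493 higher, where the scaling by background gave 6156 and 200. Without Gel replicate 2 the log2 difference was -0.50, with an adjusted limma p of 0.222. Summits stayed in place, within 26 bp over the 4 libraries. Among 1944 regions with a like Gel fold, 99.4% had peaks in both CuNZ@Gel libraries, and their median CuNZ@Gel width was 75.9% of Gel. Of those with peaks in all libraries, 95.9% kept a larger share of their Gel width than Cxcl10 region 3 did, and 87.5% a larger share of their height.

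Cxcl10 region 1, from 92480282 to 92481141, differed by a smaller step. Its peaks covered 825 and 860 bp in Gel and 618 and 531 bp in CuNZ@Gel, with folds of 9.44 and 8.52 against 7.42 and 5.45. Neither measure overlapped between groups, but the limma difference of -268 ± 83.4 bp (SE) had an adjusted p of 0.0937. Its height ratio of 0.809 was close to the median of 0.805 over regions of like Gel fold, and its width, 68.2% of Gel, was below their median of 74.1%.

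Cxcl10 region 2, from 92496648 to 92497540, was the weakest. Gel replicate 2 had a peak of 761 bp and fold 3.596, CuNZ@Gel replicate 1 had one of 300 bp and fold 3.15, and Gel replicate 1 and CuNZ@Gel replicate 2 had none. Their summits lay 577 bp apart. Presence thus split each treatment. A summit of the mean height of the 2 peaks would have had 18.4 fragments in Gel replicate 1, above the fewest called there, 13, and 9.80 in CuNZ@Gel replicate 2, next to the fewest called there, 9. This mean also leaves out the libraries without a peak and so leans upward. The deposited group lists held no interval for this region. Elsewhere, 4300 regions had a Gel peak in replicate 2 only, with a fold within 10% of that of this region. Of these, 8.67% had a CuNZ@Gel peak in replicate 1 only, and 84.2% had no CuNZ@Gel peak.

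**Figure D3:**
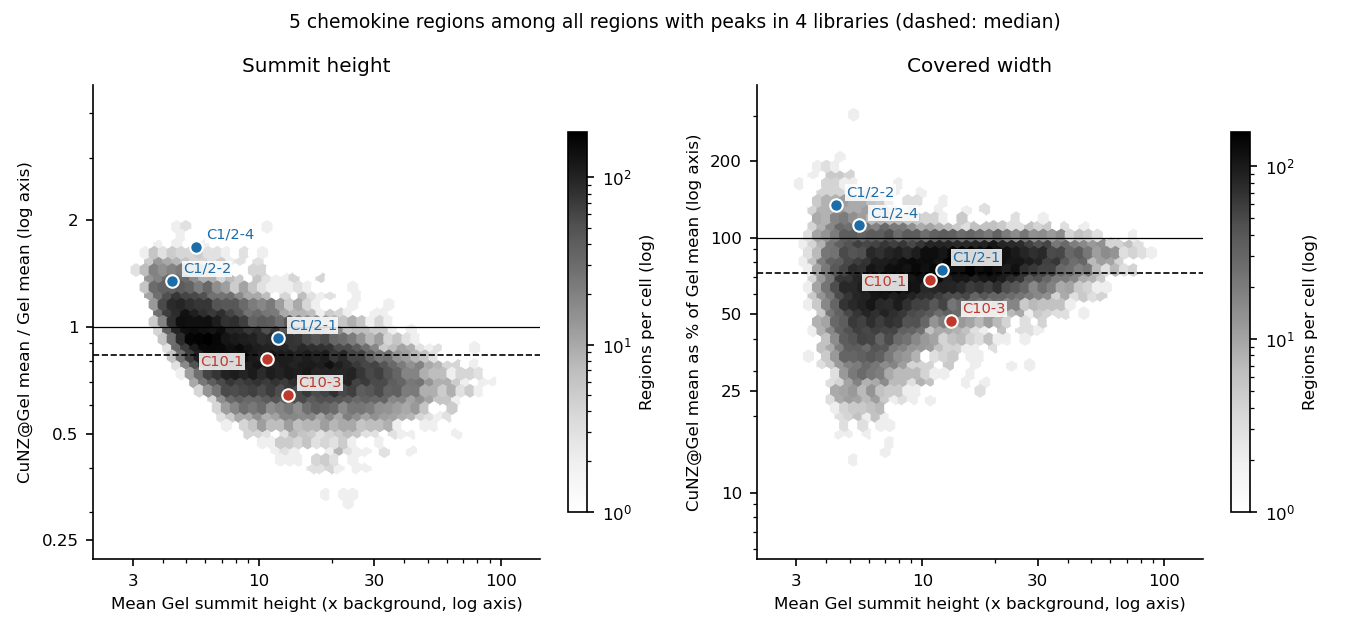
Summit height of CuNZ@Gel over Gel (left) and covered width of CuNZ@Gel as a percentage of Gel (right) against mean Gel summit height, for the 21909 regions with peaks in all 4 libraries (grey, darker where more regions fall) and the 5 chemokine regions among them (C1/2, Cxcl1-Cxcl2 window; C10, Cxcl10 window; then the region number). All axes are logarithmic, solid lines mark equality and dashed lines the medians of 0.831 and 72.8%; Cxcl1-Cxcl2 region 4 lies at 1.68 and Cxcl10 region 3 at 47.0%.

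Set side by side, the 5 regions with peaks in all libraries did not all differ in the same direction. In summit height, limma called 2 of them, Cxcl1-Cxcl2 region 4 higher and Cxcl10 region 3 lower. Over all 21909 regions it called 0.913% higher and 28.1% lower, so over regions of all Gel strengths a lower call was common and a higher one rare. In 2 of the 5, Cxcl1-Cxcl2 regions 2 and 4, every CuNZ@Gel summit height exceeded every Gel height, against a background of 7.2%. In the other 3 every CuNZ@Gel height was lower, against a background of 56.7%. The authors' fold gave the same split, 2 higher and 3 lower, where the backgrounds were 4.55% and 63.2%. By fragments alone, 0 were higher and 3 were lower in this sense, a split that was not counted over all regions. The limma fit of unscaled fragments called 77.5% of all regions lower and 0.0137% higher, so nothing is read from these counts. The 2 higher ones were also the weaker ones in Gel, with mean heights of 4.38 and 5.48 against 10.8 to 13.2 for the other 3. Regions with Gel folds like those of regions 2 and 4 had median height ratios of 1.07 and 0.949. Over all regions in the 4 lists the median was 0.831. The backgrounds of 7.2% and 0.913% are therefore not those of their like. In the order of mean Gel height, Cxcl10 region 3 (13.2 ± 1.81), Cxcl1-Cxcl2 region 1 (12.0 ± 0.163) and Cxcl10 region 1 (10.8 ± 0.705, SD, n = 2 each) led. The neighbours Cxcl10 region 3 and Cxcl1-Cxcl2 region 1 overlapped in their libraries' values. In CuNZ@Gel the order was Cxcl1-Cxcl2 region 1 (11.2 ± 0.262), Cxcl1-Cxcl2 region 4 (9.24 ± 0.752), Cxcl10 region 1 (8.71 ± 0.810), Cxcl10 region 3 (8.45 ± 1.28) and Cxcl1-Cxcl2 region 2 (5.90 ± 0.280); the middle 3 of these overlapped.

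**Figure D4:**
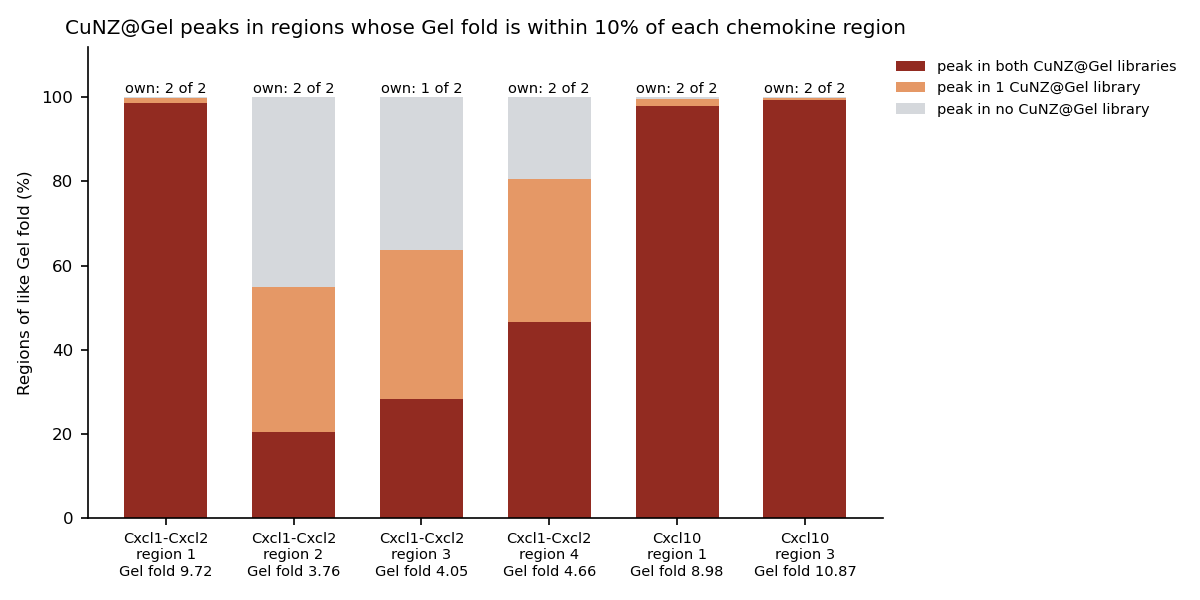
Share of regions (y axis, %) with a peak in both, 1 or no CuNZ@Gel library, among all regions whose mean Gel fold lay within 10% of that of each chemokine region (x axis, with its Gel fold); the text above each bar gives the chemokine region's own count. Only chemokine regions with peaks in both Gel libraries are shown, which leaves out Cxcl10 region 2. Shares with both peaks run from 20.4% for Cxcl1-Cxcl2 region 2 to 99.4% for Cxcl10 region 3. Among the chemokine regions shown, Cxcl1-Cxcl2 region 3 is the one with a peak in 1 CuNZ@Gel library.

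The regions elsewhere with the most similar folds were found by Euclidean distance of log2 fold over the 4 libraries. For Cxcl1-Cxcl2 region 4 the nearest was on chromosome 1 from 132269251 to 132270714, at a distance of 0.21, with folds of 5.47 and 4.64 in Gel and 6.97 and 6.65 in CuNZ@Gel. Its covered width was 895 and 1345 bp in Gel and 850 and 892 bp in CuNZ@Gel. For Cxcl10 region 3 the nearest was on chromosome 12 from 104996781 to 104998532, at a distance of 0.08. That region had folds of 9.62 and 12.1 against 6.22 and 6.94, but its width of 1449 and 1752 bp in Gel and 1457 and 1363 bp in CuNZ@Gel overlapped between groups, which that of Cxcl10 region 3 did not.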

How the data were processed

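The study profiled H3ac by chromatin immunoprecipitation and sequencing. Crosslinking lasted 10 min in 1% formaldehyde and fragments of 150 to 350 bp were made, per the labels' protocols. MACS2 2.2.8, SAMtools 1.17, deepTools 3.5.6, fastp and the build GRCm39 are named, per the submitters' processing notes. Not given in the sources used here are the aligner, the use of input and the options of the peak calling. The deposited lists, 1 per library, give each peak a start, an end, a score, a fold ratio over background, a −log10 p, a −log10 q and a summit, all by the authors. The deposited score equals 10 times the −log10 q, cut to a whole number, in between 99.9856% and 99.995% of peaks. The lowest deposited −log10 q values, from 1.30 to 1.35, fit a q-value threshold of 0.05. The 2 deposited group lists were used for interval positions only.

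Fold and p were solved for whole summit fragments and background, taking fold as fragments plus 1 over background plus 1 and a Poisson tail; 100% of peaks were solved at a relative tolerance of 0.0001. This was tested on simulated data, where it recovered the fragments. The limma fit of width, tested likewise, recovered the size of the differences put in, but called them only where a large share of regions differed and called none where few did. Depth is the commonest background of a list. Peaks on 19 autosomes, X and Y were merged across lists. Library totals per window were compared by an exact permutation test. Covered width per region was fitted with limma 3.58.1 in R 4.3.3, with trend and robust, and Benjamini-Hochberg adjustment over all regions. Regions of like Gel fold are a description, with no test. The windows, lists and measures were chosen with earlier results of these data known. All regions touching the windows are named, by position. The promoter peaks planned for fixed gene lists and the cell type markers were left out, since the gene tables are of GRCm38.p6 and coordinates were not converted. Sequences matched 3 of the 3 gene symbols. Intervals cover counting error only. Coordinates are 1-based.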

Additional observations from a re-analysis of the deposited data

How the results depend on the processing

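Groups of 2 libraries limit each comparison. Dropping the peaks that would miss the weakest p of the shallowest library, after their summit fragments and background were scaled to it, left both window differences in covered width as they were; it does not rescale peak widths, so width was not compared at equal depth. At a −log10 q of at least 3, the covered width of the Cxcl1-Cxcl2 window differed by -90 bp as before, and with windows 5 kb wider on each side by -298.5 bp; leaving out 1 library gave -293 to 113 bp, and peak number differences of -1 to 0. For the Cxcl10 window, leaving out 1 library gave -1457 to -730 bp and -0.5 to 0.5 peaks. Covered-width calls over all regions, lower and higher, were 3458 and 14 without trend and robust, 3183 and 12 with all merged regions, 12321 and 254 with log2(width + 100 bp), 7353 and 77 at a −log10 q of at least 3, and 0 to 10252 and 0 to 61 without any 1 library, where a group left with a single library borrows its spread from the other group. Calls on summit height, a measure added after seeing the data, were 801 and 493 when centred, 16983 and 3 without scaling, and 2281 to 6545 and 60 to 365 without any 1 library; the cause was not tested. Cxcl10 region 3 passed on width without trend and robust (adjusted p = 0.0474), with log2 widths (0.0252) and at the stricter q (0.0441), all by limma. Differences that changed sign were none of them past the threshold under those settings: Cxcl1-Cxcl2 region 2 in width (-144.5 to 404.5 bp when leaving out 1 library, below 0 without CuNZ@Gel replicate 1 and, at -56.5 bp, without Gel replicate 2) and in unscaled log2 fragments (-0.19), region 4 in width (-22 to 165 bp, lowest without Gel replicate 1), Cxcl10 region 2 in width (-611 to 150 bp, highest without Gel replicate 2), and Cxcl1-Cxcl2 region 1 in centred log2 height (0.16). Shares of regions of like Gel fold with both CuNZ@Gel peaks became, within 25% of the Gel fold, 98.0%, 25.9%, 40.01% and 96.5% for Cxcl1-Cxcl2 regions 1, 3 and 4 and Cxcl10 region 1, and, matched on height, 15.9%, 25.5%, 41.1% and 97.3% for Cxcl1-Cxcl2 regions 2, 3 and 4 and Cxcl10 region 1.

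Fitted with a replicate block, limma called 0 regions lower and 0 higher in covered width (19344 at an unadjusted p under 0.05), and 6376 lower and 226 higher in summit height. Libraries with the same number hardly deviated together (correlation 0.0064 for width and 0.011 for height, over regions), and no label says that a number pairs libraries. The block changed no call on a chemokine region.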

Other observations

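The strongest H3ac regions near the windows lay outside them. Within 50 kb of the Cxcl1-Cxcl2 window, the region from 91078604 to 91080092 had folds of 15.7 and 16.1 in Gel and 14.2 and 11.6 in CuNZ@Gel, and covered 1399 and 1351 bp against 1289 and 737 bp. Beside the Cxcl10 window, the region from 92456097 to 92457841 had folds of 16.7 and 17.98 against 13.7 and 12.1, and covered 1742 and 1627 bp against 1595 and 1312 bp. In each, every CuNZ@Gel width was below every Gel width, as in 74.5% of all regions with peaks in all 4 libraries. On the other side of the Cxcl10 window, the region from 92521585 to 92522743 covered 1159 and 953 bp in Gel and 361 and 548 bp in CuNZ@Gel, while its neighbour from 92522897 to 92524196 covered 1267 and 1289 bp against 1244 and 1199 bp. These regions were chosen after their values were seen and were not tested.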
